A study of Mus musculus with 12 samples.

Results

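The nuclear genes of oxidative phosphorylation were followed across mouse embryonic stem cells (ESCs) with and without Dgcr8. Members were the nuclear protein-coding genes whose symbol begins with Nduf, Uqcr, Sdha to Sdhd, Cox4 to Cox8 or Atp5, and that reached 3 CPM (counts scaled to a common library total) in at least 3 of the 12 libraries. The symbols matched 97 genes, of which 91 passed the CPM filter, among 14033 genes tested. The 12 libraries form 4 groups of 3 replicates: total RNA and 4-thiouridine (4sU) labelled RNA from wild-type ESCs (WT), and the same from ESCs in which Dgcr8 is knocked out (KO). All cultures were grown in serum with LIF and the 2 inhibitors of 2i medium and were labelled with 500 uM 4sU for 30 minutes, so the 4sU fraction holds newly made (nascent) RNA. The title and genotype labels of the KO samples name DGCR8, whereas their source names read DDX8KO. The labels name neither the parental line nor the number of KO clones, and where replicates are not separate cultures the p-values cover only the spread between these samples.

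Oxidative phosphorylation passes electrons from NADH and succinate through complexes I to IV of the inner mitochondrial membrane to oxygen, and complex V (ATP synthase) uses the proton gradient this builds to make ATP. The mitochondrial genome encodes a few catalytic and membrane subunits, and the nucleus encodes all others, so that both genomes supply each complex except complex II. Transcription of the nuclear subunits is widely attributed to NRF1, the ETS factor GABP (NRF2) and YY1, with PGC-1 family coactivators. Dgcr8 encodes the RNA-binding partner of the nuclease Drosha, and cells without it lack canonical miRNAs, in ESCs chiefly the miR-290 and miR-302 families.

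Library totals ranged from 4593914 to 9295245 assigned reads. Dgcr8 had 102 ± 9.3 CPM (SD, n = 3) in WT total RNA and 33.3 ± 1.09 in KO total RNA, a log2 change of -1.60 (adjusted p = 6.63e-17, limma). The 8 ESC markers all passed the filter and summed to between 4687 and 4841 CPM in the 6 total RNA libraries, with 3 higher and 5 lower in KO cells, whereas none of 5 fibroblast feeder markers passed. In 4sU RNA their sum was 5684 to 5742 CPM in WT and 6668 to 7165 CPM in KO libraries. Of the primed epiblast and neural markers, Pou3f1 (-2.42), Dnmt3b (-0.90) and Nes (-0.73) fell and Otx2 rose (0.78) in total RNA, and their part in the members' changes was not tested. In ratios of bulk libraries, fewer cells of a kind and less RNA per cell cannot be told apart. The members took 1.33 ± 0.019% of all counts in WT total RNA and 1.142 ± 0.016% in KO total RNA (SD, n = 3), and the lowest WT library (1.31%) was above the highest KO library (1.16%).

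Promoters are shown to compare members that fell with one that did not. RefSeq promoters (250 bases before to 50 after the start, GRCm38.p6) were matched for 76 of the 91 members. Capitals mark matches, on either strand, to the NRF1 core GCGCATGC, the ETS core CCGGAAG or the YY1 core AAGATGG. Atp5k and Uqcr11 hold both the NRF1 and ETS cores and fell in KO cells. Cox6a1 holds the same pair and did not pass the test. Sdhb, which fell, and Atp5l, which did not pass, also hold this pair and are not shown. Ndufc1 holds the YY1 core, and Cox7b, which fell most, holds none of the 3.
Atp5k, chr5:108434350-108434649, minus strand: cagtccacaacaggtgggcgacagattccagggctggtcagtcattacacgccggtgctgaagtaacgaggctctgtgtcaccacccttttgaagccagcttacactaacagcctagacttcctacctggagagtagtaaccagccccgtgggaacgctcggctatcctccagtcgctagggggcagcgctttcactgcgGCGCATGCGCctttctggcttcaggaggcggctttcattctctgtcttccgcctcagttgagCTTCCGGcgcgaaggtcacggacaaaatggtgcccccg
Uqcr11, chr10:80406772-80407071, minus strand: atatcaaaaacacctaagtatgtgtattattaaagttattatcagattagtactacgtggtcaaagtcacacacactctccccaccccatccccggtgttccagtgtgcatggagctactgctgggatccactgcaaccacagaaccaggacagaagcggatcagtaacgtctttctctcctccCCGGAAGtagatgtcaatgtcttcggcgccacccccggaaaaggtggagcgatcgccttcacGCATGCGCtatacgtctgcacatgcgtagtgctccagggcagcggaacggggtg
Cox6a1, chr5:115348909-115349208, minus strand: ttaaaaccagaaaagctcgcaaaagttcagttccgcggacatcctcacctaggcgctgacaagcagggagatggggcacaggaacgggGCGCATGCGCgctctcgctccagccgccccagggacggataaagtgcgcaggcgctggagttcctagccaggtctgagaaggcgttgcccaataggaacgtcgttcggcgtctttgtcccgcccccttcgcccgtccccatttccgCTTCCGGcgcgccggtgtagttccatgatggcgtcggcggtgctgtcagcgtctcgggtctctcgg
Ndufc1, chr3:51408906-51409205, minus strand: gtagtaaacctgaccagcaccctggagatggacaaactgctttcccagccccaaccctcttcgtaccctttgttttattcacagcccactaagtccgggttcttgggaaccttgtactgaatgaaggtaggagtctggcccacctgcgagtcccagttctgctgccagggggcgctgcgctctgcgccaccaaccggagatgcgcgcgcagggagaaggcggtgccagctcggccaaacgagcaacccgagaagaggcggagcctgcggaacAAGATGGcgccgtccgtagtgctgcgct
Cox7b, chrX:106015450-106015749, plus strand: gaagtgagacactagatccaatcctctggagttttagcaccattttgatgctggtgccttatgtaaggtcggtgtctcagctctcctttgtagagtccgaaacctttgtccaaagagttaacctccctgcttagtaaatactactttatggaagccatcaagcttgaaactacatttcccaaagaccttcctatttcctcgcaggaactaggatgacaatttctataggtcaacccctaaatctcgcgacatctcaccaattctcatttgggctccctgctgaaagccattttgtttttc

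The NRF1 core was in 12 of 76 member promoters (15.8%), against 5.88% of the promoters of tested coding genes and 2.80% of all promoters of this length. The ETS core was in 20 (26.3%, against 19.0% and 9.12%) and the YY1 core in 10 (13.2%, against 7.53% and 6.47%). The median log2 change in total RNA was -0.27 for members with the NRF1 core and -0.42 for those without, -0.44 and -0.40 for the ETS core, and -0.35 and -0.40 for the YY1 core. These are matches of letters in a window and not measured binding.

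In total RNA, the members were lower in KO than in WT cells. At an adjusted p under 0.05, 63 of 91 fell (69.2%, against 36.7% of all genes tested) and 3 rose (background 27.2%). The median log2 change was -0.39 for the members and -0.09 for all genes. In 67 members every KO library lay below every WT library (73.6%, against 39.6% of all genes). By the rule of an adjusted p under 0.05 and a change over 1 on the log2 scale, 4 members were called (background 17.2%), all of them lower: Cox7b, Ndufc1, Uqcrq and Ndufa2. The other 59 falls were of 0.17 to 0.99 on the log2 scale.

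**Figure D1:**
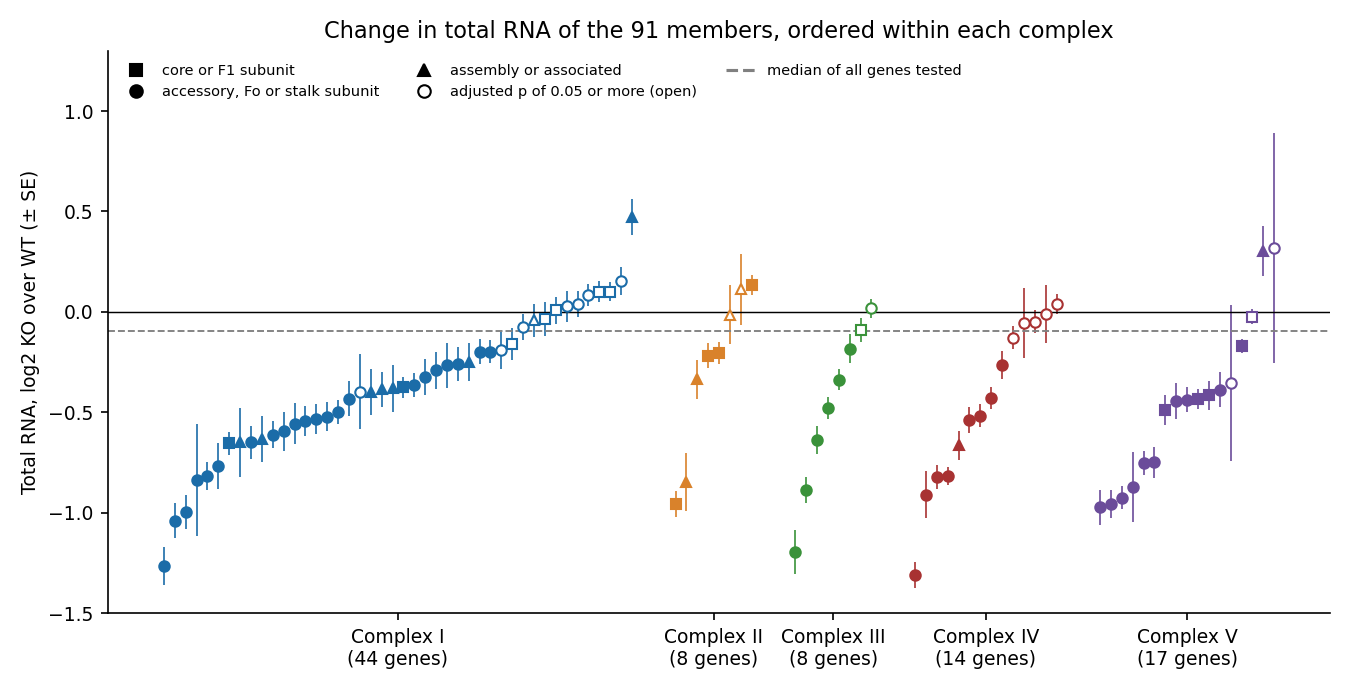
Log2 change in total RNA (KO over WT, ± SE) of the 91 members, ordered within complexes I to V. Squares are core or F1 subunits, circles other subunits and triangles assembly or associated proteins, filled symbols passed an adjusted p of 0.05, and the dashed line is the median of all genes tested (-0.09). Most points of every complex lie below the line, from -1.31 for Cox7b upward.

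Cox7b (ENSMUSG00000031231.4, X:106015700-106022450, mm10, plus strand) encodes a small structural subunit of cytochrome c oxidase. Its total RNA level was 171, 197 and 179 CPM in the WT libraries and 69.5, 74.7 and 76.9 CPM in the KO libraries. The groups did not overlap, and the log2 change was -1.31 ± 0.066 (SE, adjusted p = 1.78e-17). Ndufc1 (3:51404677-51408988, minus strand), an accessory membrane-arm subunit of complex I, was at 43.1, 42.9 and 43.2 CPM in WT and 17.8, 17.9 and 17.9 CPM in KO cells. The KO libraries were well below the WT libraries, with a log2 change of -1.27 ± 0.096 (adjusted p = 4.45e-13).

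Uqcrq (11:53427922-53430827, minus strand), a small subunit of the cytochrome bc1 complex, was at 37.9, 44.9 and 43.7 CPM in WT and 19.4, 18.9 and 16.9 CPM in KO total RNA, a log2 change of -1.19 ± 0.11 (adjusted p = 4.30e-11). Ndufa2 (18:36742332-36744557, minus strand), an accessory subunit of the complex I matrix arm, was at 54.8, 54.1 and 55.0 CPM in WT and 25.5, 25.8 and 28.7 CPM in KO total RNA. All 3 KO libraries of both genes were below all WT libraries, and the log2 change of Ndufa2 was -1.04 ± 0.085 (adjusted p = 2.68e-12).

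**Figure D2:**
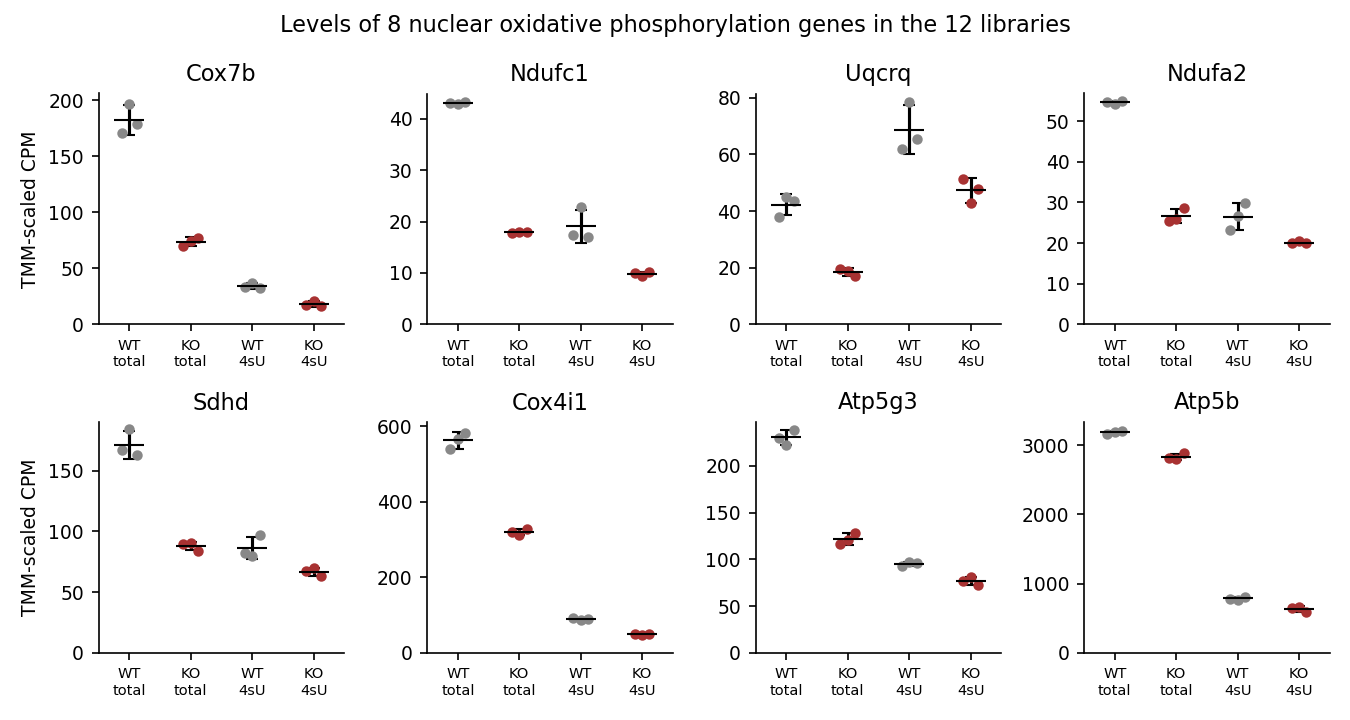
TMM-scaled CPM (y axes, from 0) of 8 members in the 12 libraries, with grey points for WT, red points for KO, and bars for mean ± SD (n = 3). In total RNA the 3 KO libraries of each gene lie below the 3 WT libraries, with a wide gap for Cox7b and a narrow one for Atp5b (means of 3186 and 2833 CPM).

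Complex I oxidises NADH and is the largest of the complexes. Of its 44 members, 30 fell and 1 rose, with a median log2 change of -0.38. The falls were common among the accessory subunits (22 of 29, median -0.43), with Ndufb10 at -0.99, Ndufb7 at -0.82 and Ndufa1 at -0.77. Among the 7 core subunits, which carry the flavin and the iron-sulphur clusters, 2 fell (Ndufv2 at -0.66 and Ndufs1 at -0.38) and the median was -0.04. The other 5 core subunits lay between -0.16 (Ndufs7) and 0.10 (Ndufv1) and did not pass the test. The difference between core and accessory subunits was not tested.

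Of the 8 complex I assembly factors, 6 fell and Ndufaf5 rose. Ndufaf5 modifies a core subunit during assembly, and its level was 27.5, 25.5 and 22.3 CPM in WT and 34.6, 34.4 and 34.4 CPM in KO total RNA. Every KO library exceeded every WT library (log2 change 0.47 ± 0.090, adjusted p = 3.06e-05).

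Complex II, succinate dehydrogenase, also acts in the tricarboxylic acid cycle and has 4 subunits, all nuclear. The membrane anchor Sdhd had 167, 184 and 163 CPM in WT and 89.6, 90.4 and 83.9 CPM in KO total RNA, a log2 change of -0.96 ± 0.066 (adjusted p = 4.20e-14). The catalytic flavoprotein Sdha had 288, 308 and 320 CPM in WT and 324, 349 and 335 CPM in KO total RNA and rose by 0.13 on the log2 scale (adjusted p = 0.0177). Sdha and Sdhd therefore moved in opposite directions within 1 enzyme. The call of Sdha was lost without WT replicate 1 (adjusted p = 0.138) or KO replicate 2 (adjusted p = 0.12). The iron-sulphur subunit Sdhb (-0.22) and the anchor Sdhc (-0.20) fell less than Sdhd, and of the 4 assembly factors Sdhaf1 (-0.85) and Sdhaf2 (-0.34) fell.

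In complex III, which passes electrons from ubiquinol to cytochrome c, 6 of 8 members fell (median -0.41). The hinge protein Uqcrh was at 118, 127 and 114 CPM in WT and 62.3, 64.5 and 67.4 CPM in KO total RNA, a log2 change of -0.89 ± 0.066 (adjusted p = 2.48e-13). The core protein Uqcrc1 (0.02) and the Rieske iron-sulphur protein Uqcrfs1 (-0.09) did not pass the test.

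In complex IV, cytochrome c oxidase, 9 of 14 members fell (median -0.47). The catalytic core is mitochondrially encoded, so these are the surrounding structural and regulatory subunits. Cox4i1 had 540, 567 and 583 CPM in WT and 319, 313 and 329 CPM in KO total RNA (log2 change -0.82 ± 0.045, adjusted p = 1.66e-16). Cox7a1, the heart and muscle isoform, fell by 0.91 and Cox7a2, the widely expressed isoform, by 0.82 on the log2 scale, and the related Cox7a2l, which takes part in supercomplex formation, by 0.66. By contrast Cox6a1 (-0.13), Cox6b1 (0.04), Ndufa4 (-0.05) and Cox6b2 (-0.01) did not pass the test, and the sign of the last changed with the scaling. Cox6b1 passed as higher when the total RNA libraries were fitted alone (0.12, adjusted p = 0.0124). Cox8a fell by 0.52.

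Of the tissue-restricted isoforms, Cox4i2, Cox6a2, Cox7b2, Cox8b, Cox8c and the Ndufa4 paralogue Ndufa4l2 missed the CPM filter, with at most 18 counts in any library. Cox6a2, Cox8b and Cox8c never exceeded 1 count. Reads of these families thus came chiefly from the widely expressed isoforms, with the muscle form Cox7a1 at 22.2 ± 1.4 CPM and the testis form Cox6b2 at 12.9 CPM in WT total RNA.

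In complex V, 13 of 17 members fell and 1 rose. Atp5b, the catalytic beta subunit of the F1 head, was at 3163, 3193 and 3201 CPM in WT and 2813, 2798 and 2887 CPM in KO total RNA, a non-overlapping but small difference (log2 change -0.17 ± 0.035, adjusted p = 7.01e-05). Atp5a1, the alpha subunit, did not pass the test (-0.02). The membrane (Fo) and stalk subunits had a median change of -0.75, and 9 of 11 fell.

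Among the Fo and stalk subunits, Atp5k (subunit e) had 75.7, 90.5 and 85.2 CPM in WT and 41.2, 46.2 and 41.0 CPM in KO total RNA, with a log2 change of -0.97 ± 0.087 (adjusted p = 1.96e-11). Atp5g1, Atp5g2 and Atp5g3 encode the same mature c-ring protein with different import sequences. Atp5g3 supplied most of their reads, at 230, 222 and 239 CPM in WT and 116, 121 and 128 CPM in KO total RNA (log2 change -0.92 ± 0.056, adjusted p = 1.65e-15). Atp5g1 fell by 0.87 on the log2 scale from 12.8 CPM, and Atp5g2 (1.84 CPM in WT) did not pass the test. The counts of Atp5g2 and Atp5l are uncertain, and Atp5g1 also shares sequence with other genes, as described with the total to 4sU ratio.

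Atp5s, a coupling factor, was at 12.3, 11.8 and 11.97 CPM in WT and 15.4, 14.5 and 14.6 CPM in KO total RNA, and rose by 0.30 on the log2 scale (adjusted p = 0.0346). This small rise missed the threshold in 10 alternatives, among them leaving out any WT replicate, KO replicate 1 or KO replicate 2 (adjusted p from 0.0523 to 0.107).

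Per kilobase of counted exon, the highest members in WT total RNA were Atp5b (1663 CPM per kb), Cox4i1 (736), Atp5a1 (675), Cox5a (447) and Uqcr10 (417). The median member was at 84.1 CPM per kb, against 10.9 for all coding genes tested. In KO cells the levels per length of these 5 genes were 1478, 419, 664, 332 and 299 CPM per kb, so Atp5a1 ranked above Cox4i1.

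Nascent RNA moved the same way, with smaller differences. In the 4sU libraries 44 members fell (48.4%, background 28.0%) and 3 rose (background 28.3%), with a median log2 change of -0.23, against -0.02 for all genes. By the rule that also asks for a change over 1, limma called 0 members (0 also at an unadjusted p under 0.05, 0 by edgeR and 1 by DESeq2, Ndufc1), against 14.8% of all genes. The share that fell was highest in complex IV (10 of 14) and complex V (12 of 17), and was 16 of 44 in complex I, 5 of 8 in complex III and 1 of 8 in complex II.

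Cox4i1 had 90.9, 87.4 and 88.9 CPM in WT and 50.2, 47.9 and 50.1 CPM in KO nascent RNA, and its change (-0.85 ± 0.077, adjusted p = 5.38e-11) was about the same as in total RNA. Cox7b fell by 0.91 in nascent RNA (adjusted p = 3.99e-07), from 33.3, 36.8 and 32.4 to 17.4, 20.8 and 16.2 CPM. Ndufc1 fell by 0.92 (adjusted p = 6.98e-06) and Atp5k by 0.71 (adjusted p = 2.47e-04). These 4 genes were thus lower at the level of newly made RNA as well, in all KO libraries.

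The other leading falls of nascent RNA were Uqcrh (-0.54) in complex III, Sdhd (-0.38) in complex II and Cox7a1 (-0.91, adjusted p = 0.0145) in complex IV. The call of Cox7a1 rests on 4.19 CPM in WT and 2.26 CPM in KO libraries and was lost without KO replicate 3 (adjusted p = 0.108). The 3 members that rose were all assembly factors or associated proteins: Atp5s (0.86 ± 0.22, adjusted p = 0.00169), Ndufaf5 (0.62 ± 0.16, adjusted p = 0.00101) and Ndufaf3 (0.54 ± 0.15, adjusted p = 0.00227).

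Across the 91 members, the changes in total and nascent RNA had a Spearman's rho of 0.69, and across all 11884 coding genes of 0.84. These are descriptions across genes, which are not independent replicates. The total and 4sU libraries are fractions prepared from labelled cultures, so differences between cultures can be shared by both axes. The labels do not say which libraries come from the same culture.

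**Figure D3:**
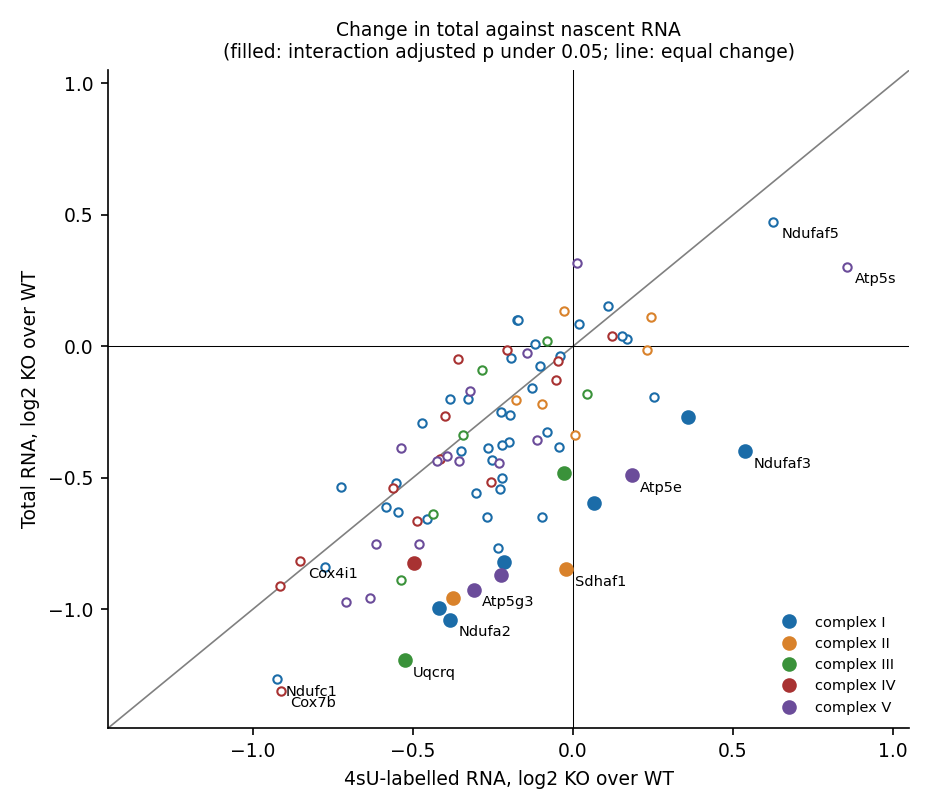
Log2 change (KO over WT) in total RNA (y axis) against 4sU-labelled RNA (x axis) for the 91 members, coloured by complex. Filled points have an interaction adjusted p under 0.05, and the grey line marks equal change. All 14 filled points lie below the line, and Ndufaf3 lies in the quadrant of higher nascent and lower total RNA (0.54 and -0.40).

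The change in total RNA relative to nascent RNA (the interaction of genotype and library type) was used as the measure of mRNA stability. At an adjusted p under 0.05, 14 of 91 members were lower in stability (15.4%, background 11.1%). Of coding genes counted over fewer than 1000 bases, 23.3% were lower in stability. By limma 0 members were higher (background 5.02%), with 4 higher at an unadjusted p under 0.05. The median log2 stability change was -0.13, against -0.09 for all genes. With libraries paired by replicate number, the median member's log2 total to 4sU ratio, relative to all genes, was 1.41 to 1.52 in WT. In KO cells this ratio was 1.27 to 1.36, below every WT value. The size of the members' shift relative to all genes thus depended on the summary used, and the shift was not tested. By the rule that also asks for a change over 1, limma, edgeR and DESeq2 called 0 members, 0 at an unadjusted p, against 1.76% of all genes. The split depended on the test, the filter and the scaling of the libraries. With the same scaling, edgeR gave 16 lower and 2 higher, limma-trend 15 and 3, and a filter of 3 CPM in all 12 libraries 14 and 3. With that scaling, blocks by replicate number gave 17 and 3, and blocks by genotype and number 16 and 3. With RLE size factors 9 members were lower and 7 higher, with upper-quartile scaling 10 and 5, with library size alone 12 and 4, and DESeq2 gave 9 and 5. Without WT replicate 1, 9 were lower.

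Atp5e, Atp5g3, Ndufa2, Ndufaf3, Ndufb7, Sdhd, Uqcr10 and Uqcrq were lower in stability in each alternative run. The same count over all genes is not given. Atp5g3 had 92.6, 96.8 and 96.4 CPM in WT and 76.8, 81.5 and 72.3 CPM in KO nascent RNA, a smaller difference than in total RNA, and its stability change was -0.61 ± 0.091 (adjusted p = 1.10e-05). Sdhd was at 82.3, 79.9 and 96.8 CPM in WT and 67.0, 69.6 and 62.8 CPM in KO nascent RNA (stability change -0.58 ± 0.11, adjusted p = 1.71e-04). For both genes nascent RNA also fell.

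Uqcr10 and Atp5e, a small subunit of complex III and the epsilon subunit of F1, passed the test in total RNA and not in nascent RNA. Uqcr10 nascent RNA was at 56.6, 55.4 and 54.1 CPM in WT and 58.2, 54.0 and 51.2 CPM in KO cells, which overlapped, whereas its total RNA fell by 0.48 on the log2 scale (stability change -0.45 ± 0.10, adjusted p = 0.00151). Atp5e had a stability change of -0.67 ± 0.15 (adjusted p = 0.00171).

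Ndufaf3, which acts early in complex I assembly, went in opposite directions. Its nascent RNA was at 11.1, 15.3 and 13.9 CPM in WT and 21.6, 17.4 and 18.7 CPM in KO libraries, while its total RNA was at 22.2, 21.7 and 20.9 CPM in WT and 16.7, 17.5 and 14.7 CPM in KO libraries. Neither pair of groups overlapped, and the stability change was -0.94 ± 0.19 (adjusted p = 4.76e-04). Sdhaf1, the assembly factor of the iron-sulphur subunit of complex II, had the next lowest estimate (-0.83), which missed the threshold without KO replicate 1 (adjusted p = 0.0518).

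Members that were higher in stability under RLE scaling included Ndufa4 (0.40), Ndufv1 (0.36), Uqcrfs1 (0.28), Sdha (0.25), Atp5b (0.24) and Atp5a1 (0.21). In the limma fit reported here their estimates were between 0.12 (Atp5a1) and 0.31 (Ndufa4) and did not pass. With the scaling unchanged, Ndufa4 and Ndufv1 also passed as higher with limma-trend, with the strict filter and with either replicate block, and Ndufa4 with edgeR. Except for Ndufa4, these are core or F1 subunits.

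In WT cells, total RNA relative to 4sU RNA was high for most members. The ratio compares libraries scaled to a common total, so it ranks genes and gives no half-life. The median log2 ratio was 1.55 for the members, 0.31 for coding genes and 0.08 for all genes, and 69 of 91 members (75.8%) lay above the upper quartile of coding genes. With libraries paired by replicate number, the median member relative to all genes was at 1.46 ± 0.058 in WT and 1.32 ± 0.046 in KO cells (SD, n = 3).

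Among the highest WT ratios were those of Cox4i1 (2.66, percentile 99.8 of coding genes), Uqcr11 (2.56), Ndufa9 (2.48) and Ndufs4 (2.43). The 5 lowest were those of Cox7c (-3.26, percentile 0.513), Atp5g2 (-2.93), Atp5l (-2.30), Cox6b2 (-1.58) and Ndufab1 (-1.18). Cox7c, a ubiquitous subunit of complex IV, had 14.7 CPM in WT total RNA but 143.9 CPM in 4sU RNA.

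The authors counted uniquely mapped reads, so a gene whose exons recur elsewhere keeps few positions at which a read can be counted. Of the 50-base windows of the reference transcript, 87.4% of Atp5g2, 68.5% of Atp5l and 53.0% of Cox7c also occur in transcripts of other genes. At least 10% of windows were shared in 19 members (20.9%), against 8.29% of coding genes. Sharing and a low ratio did not always go together, since Atp5h (47.9% shared) had a ratio of 0.84, Uqcrb (43.2%) 1.46 and Cox6b2 (0% shared) -1.58. The levels of Atp5g2, Atp5l and Cox7c are therefore given as uncertain, and the part of sharing in their ratios was not tested. Of the 19 members with at least 10% shared, 12 fell in total RNA and 2 were lower in stability. Atp5g1, Ndufa12 and Uqcr11 are among the 19, so their counts carry the same limit. Among the 72 members with under 10% sharing, 51 fell in total RNA and 35 in nascent RNA.

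**Figure D4:**
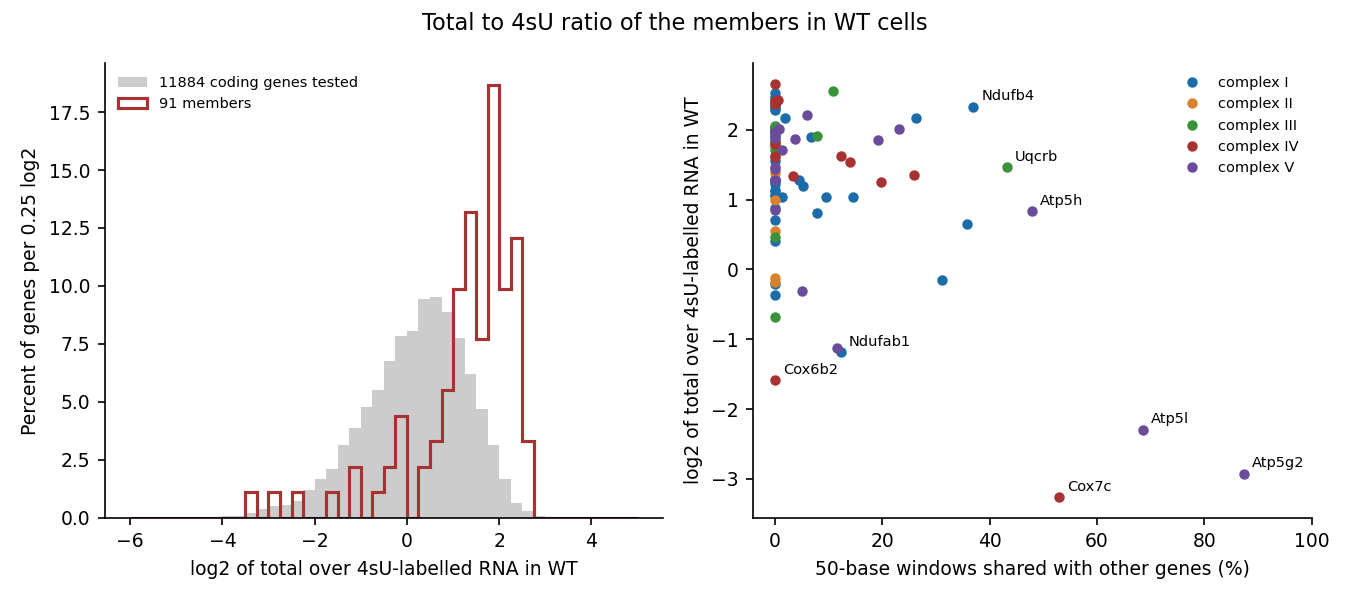
Left, distribution of the log2 total to 4sU ratio in WT cells for 91 members (red outline) and 11884 coding genes (grey), as percent of genes. Right, the ratio (y axis) against the percent of 50-base windows shared with other genes (x axis): Atp5g2, Atp5l and Cox7c lie lowest, and Uqcrb and Atp5h lie above 0 at 43.2% and 47.9%.

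The members are short genes. The median counted length was 1001 bases, against 3306 for coding genes, and the median 3′ UTR was 186 bases, against 1027. Short coding genes as a class were also lower in KO total RNA: of 511 coding genes counted over fewer than 1000 bases, members included, 61.4% fell and the median log2 change was -0.43. Of the 45 members below 1000 bases 33 fell (73.3%, median -0.49), and of the 46 longer members 30 fell (65.2%, median -0.34), whereas 39.8% of the 11373 longer coding genes fell. Across the 91 members, length and total RNA change had a Spearman's rho of 0.28, and across coding genes of 0.22. Of the 511 short coding genes, 38.2% fell in nascent RNA and 23.3% were lower in stability. Among the 45 members below 1000 bases these were 22 (48.9%) and 7 (15.6%). The part of length in the members' change was not tested.

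Few members carry a site for the AAGUGC seed of the miR-290 and miR-302 families, and sites for other lost miRNAs were not searched. The seed AAGUGC pairs with the hexamer GCACTT, which was found in the 3′ UTR of 11 of 91 members (12.1%), against 31.5% of tested coding genes. The median 3′ UTR was 186 bases in members and 1027 in coding genes, and the part of this length in the shares was not tested. The capitals mark bases 2 to 8 of each miRNA and the hexamer in each site, with the miRNAs from RefSeq and the sites from GENCODE M21 transcripts.
mmu-miR-294-3p: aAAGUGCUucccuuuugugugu
mmu-miR-302b-3p: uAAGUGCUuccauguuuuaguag
Sdhd 3′ UTR site: tgggtgcaGCACTTtgattgtg
Sdhaf1 3′ UTR site: gcacaggcGCACTTtctcctcc

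Of the 11 members with the hexamer, 6 fell in total RNA and 5 were lower in stability, and among the 80 members without it 57 fell and 9 were lower in stability (background 11.1%). Atp5g1, Ndufa12 and Ndufb2 missed the stability threshold with DESeq2, with RLE size factors, without the filter and without WT replicate 1, which left 2 of 11 and 7 of 80. The median stability change was -0.13 in both classes. Sdhd (stability change -0.58) and Sdhaf1 (-0.83) were among those lower in stability.

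The partner genes of the pathway were read against the members. Of 13 genes of the mitochondrial genome, 7 passed the filter. In total RNA 4 rose (57.1%, background 27.2%), with mt-Nd6 highest (0.48) and mt-Cytb lowest (-0.03). In nascent RNA 5 fell (71.4%, background 28.0%). The median WT log2 total to 4sU ratio of the 7 was -4.57, below that of every member. Their levels are given as uncertain, and the reason was not tested. mt-Co1, the catalytic subunit of complex IV, rose by 0.36 on the log2 scale in total RNA (adjusted p = 8.01e-09, limma). Of the 14 nuclear members of complex IV, 9 fell, Cox4i1 and Cox7b among them, and 5 did not pass the test. Of 34 electron carriers and assembly factors outside the symbol rule, 19 fell (55.9%, background 36.7%) and 2 rose (5.88%, background 27.2%) in total RNA. Their changes ran from Tmem126b (0.87) to Coa6 (-1.13). Cyc1, the cytochrome c1 of complex III, fell by 0.40, and Cycs (cytochrome c) did not pass the test (-0.23).

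Among 15 regulators of mitochondrial gene expression, 7 fell (46.7%, background 36.7%) and 2 rose (13.3%, background 27.2%) in total RNA. Their median log2 change was -0.16, against -0.09 for all genes. Tfam, which packages and transcribes mitochondrial DNA, fell most, from 116 to 57.1 CPM (log2 change -1.01, adjusted p = 1.54e-14), and Tfb2m rose most (0.76). Nrf1 fell by 0.17 (adjusted p = 0.0395), Gabpa by 0.31 and Yy1 by 0.27 in total RNA. In nascent RNA Esrra, an orphan nuclear receptor that acts with PGC-1, rose by 0.65 (adjusted p = 2.87e-04, limma). Nrf1 did not pass the test in nascent RNA (0.00). Esrra did not pass in total RNA (-0.14, adjusted p = 0.209), and its stability change was -0.79 (adjusted p = 0.0014, limma).

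Other metabolic lists were not uniform. Of 18 glycolysis genes 11 fell and 5 rose in total RNA, with Ldhb lowest (-1.62) and Aldoc highest (0.64), and of 16 tricarboxylic acid cycle and pyruvate dehydrogenase genes 9 fell and 4 rose, from Suclg2 (-1.07) to Pdha1 (0.45). Of 82 cytosolic ribosomal protein genes 65 fell (79.3%) and 3 rose (3.66%), with a median of -0.40, close to the members' -0.39. Their median WT log2 total to 4sU ratio was -0.07, against 1.55 for the members. The same median was 1.74 for the glycolysis list and 1.59 for the tricarboxylic acid cycle list, so a high ratio was not particular to the members. Many ribosomal protein genes are short and have processed copies, and no test of the difference between lists was made.

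**Figure D5:**
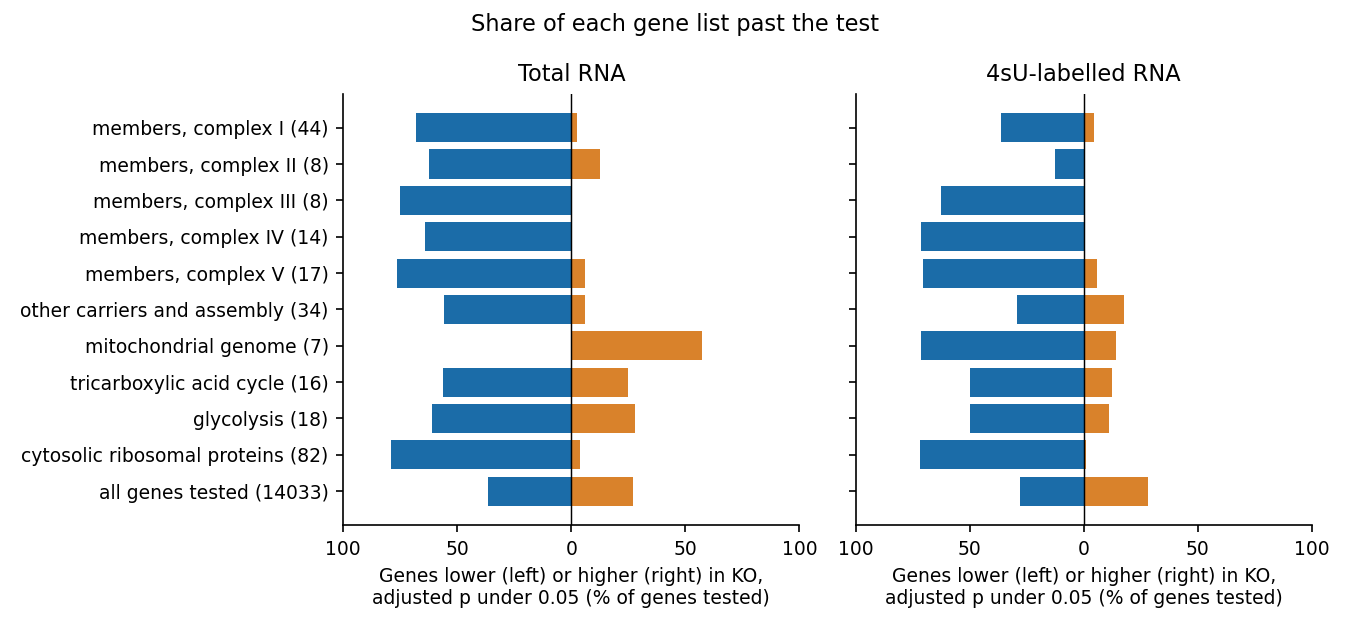
Percent of tested genes lower (blue, left) or higher (orange, right) in KO cells at an adjusted p under 0.05, in total RNA and in 4sU-labelled RNA, by complex and by comparison list (number tested in parentheses). The 5 complexes have 62.5% to 76.5% of members lower in total RNA, against 36.7% of all genes.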

How the data were processed

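The authors labelled ESCs with 4sU, biotinylated and captured the labelled RNA, and prepared stranded libraries of it and of rRNA-depleted total RNA. Per the file headers and the study's methods, reads were trimmed (cutadapt 1.14), uniquely mapped to mm10 (STAR 2.5.3a) and counted by strand over GENCODE M14 exons (featureCounts 1.5.3), and the deposited values are raw counts per gene. The column of gene length is per the file headers in bases of merged exon. Coordinates are mm10.

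Genes reaching 3 CPM in 3 libraries entered 1 linear model of all 12 libraries, made with limma-voom (limma 3.58.1, R 4.3.3) after TMM scaling in edgeR (version 4.0.16). Contrasts were KO against WT in total RNA, in 4sU RNA, and their interaction, with Benjamini-Hochberg adjustment over 14033 genes. Intervals and SEs are the fit's, on the log2 scale. Symbols came from GENCODE M21, which matched 51274 of 51467 identifiers. ERCC rows (92, with 1 count) stayed out of the tests.

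Members and gene lists were chosen with earlier results of these data known. Named genes were those called, the largest rise and fall per complex, the extreme ratios, the highest levels and the isoform families. Other core subunits, RLE calls and list members were named after their values were seen. The members with under 10% shared windows were added as an alternative after seeing the data. Other alternatives were edgeR's quasi-likelihood test, DESeq2 1.42.0, limma-trend, other scalings and filters, replicate blocks and leaving out each replicate. Individual values of 1 member are not reported here.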

Additional observations from a re-analysis of the deposited data

Results flagged for a closer look

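In 14 members the KO against WT change differed between total and nascent RNA by the interaction test (limma, adjusted p under 0.05). All 14 were lower in stability (15.4% of members), against 11.1% of all genes and 23.3% of coding genes counted over fewer than 1000 bases. The log2 difference (total minus nascent change) was -0.94 for Ndufaf3, -0.83 for Sdhaf1, -0.67 for Atp5e and Uqcrq, -0.66 for Ndufa12 and Ndufa2, and -0.65 for Atp5g1. It was -0.63 for Ndufb2, -0.61 for Atp5g3, -0.60 for Ndufb7, -0.58 for Sdhd and Ndufb10, -0.45 for Uqcr10 and -0.33 for Cox7a2. Of these, 8 passed in every alternative run, and the same count over all genes is not given. Atp5g1 and Ndufa12 share at least 10% of their 50-base windows with other genes. In Ndufaf3 each of the 3 KO libraries was above the WT libraries in nascent RNA and below them in total RNA.

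Outside the tested genes, 3 isoforms that missed the CPM filter had more than 3 counts in some library: Ndufa4l2 reached 18, Cox4i2 reached 11 and Cox7b2 reached 7.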

How the results depend on the processing

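Where all 91 members were tested, 58 to 63 fell in total RNA, with 1 to 10 higher, and 32 to 50 fell in nascent RNA. In smaller sets, 60 of 87 fell in total RNA with the strict filter, 54 of 77 among subunits and 51 of 72 among members with under 10% shared windows. The number lower in stability was 9 with DESeq2, with RLE size factors, without the low-count filter and without WT replicate 1, and ranged from 9 to 13 on leaving out each replicate. The median member minus the median of all genes was -0.3667 in total RNA and -0.2986 in nascent RNA without the filter, and -0.322 in total RNA for subunits only. Leaving out each replicate gave -0.3389 to -0.2849 in total RNA. The same stability difference was -0.04 for all members and 0.0079 for subunits only, and the cause was not tested. For the total to 4sU ratio, members minus all genes was 1.46 in WT and 1.35 in KO cells. It became 2.0293 and 1.9445 without the filter, 1.2455 and 1.071 with 3 CPM in all 12 libraries, 1.678 and 1.4879 for subunits only, and 1.6253 in WT for members with under 10% shared windows, an alternative chosen after seeing the data. Leaving out each replicate gave 1.4249 to 1.5382 in WT and 1.3133 to 1.403 in KO cells. Upper-quartile scaling moved the WT ratio of the median gene from 0.08 to -0.24.

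The value for Cox6b2, total RNA change, KO against WT, was -0.01 and turned positive with DESeq2 (0.0218), limma-trend (0.0145), RLE (0.0189), upper-quartile (0.0042) and library-size (0.0401) scaling, without the filter (0.0227), with the strict filter (0.0119) and in its own libraries (0.0704), and ranged from -0.1229 to 0.0808 on leaving out each replicate. That of Ndufa4 became 0.0031 with library-size scaling and 0.0342 in its own libraries. None of these passed the test, and the cause was not tested.

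Deviations of same-numbered libraries from their group means were weakly correlated (-0.0883 to 0.114). Between total and 4sU libraries of 1 genotype every correlation was positive (0.0178 to 0.114). With 3 libraries per group, these values cannot decide whether the numbers pair the samples. With the replicate block by number, 63 members fell in total RNA, 45 in nascent RNA and 17 were lower in stability, and Atp5s lost its call in total RNA (0.2985, adjusted p = 0.0617, limma).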
